A study of Mus musculus with 6 samples.

Results

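Immediate early transcription factors were examined in whole kidneys of KC-Tie2 and Control mice. The members were the rows of the deposited expression table whose gene name was one of 10 chosen symbols: Fos, Fosb, Jun, Junb, Jund, Egr1, Atf3, Klf4, Klf6 and Ier2. The table held 8 of the 10 among its 17550 genes, and all 8 averaged 10 or more, the limit for testing. The table as analysed here has no row for Fosb or Atf3, so neither was analysed here. KC-Tie2 mice overexpress the angiopoietin receptor Tie2 (gene Tek) in keratinocytes of the skin and serve as a psoriasis model, and Control mice are the mice they were compared with. There were 3 KC-Tie2 and 3 Control libraries, made from poly(A)-selected RNA of saline-perfused kidney. The labels used here give no promoter for the transgene and no strain, sex, age, litter, batch or time of day, and they do not say that each sample came from its own animal. All p-values therefore measure the spread between these samples, which may be technical.

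Immediate early genes are transcribed within minutes of a stimulus from factors already present in the cell, chiefly serum response factor with its ETS partners and CREB, which MAP kinases activate. Fos and Jun proteins pair through leucine zippers to form the transcription factor AP-1, while Egr1, Klf4 and Klf6 bind DNA through zinc fingers. The transcripts are short-lived, so their level also follows anaesthesia, ischaemia, cooling and dissection during tissue collection. In the kidney they are known to be induced by ischaemia, growth factors and inflammatory cytokines.

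Promoter letters were available from RefSeq (build GRCm38.p6) for 8 of the 10 genes, including Fosb and Atf3. No window was available for Egr1, whose values did not overlap between the genotypes, or for Ier2. Of the 8, 4 are shown: those of Jun, Jund and Klf6, whose values did not overlap either, and that of Fos, whose values did. Each run is the 250 bases before the RefSeq start, 5′ to 3′ on the gene's strand: chr4:95052223-95052472 on the minus strand for Jun, chr8:70697489-70697738 on the plus strand for Jund, chr13:5861239-5861488 on the plus strand for Klf6 and chr12:85473640-85473889 on the plus strand for Fos. Capitals mark TGACATCA (the AP-1-like element known from the Jun promoter), the CCAAT box, the letters TGACG (the core of the cyclic AMP response element) and the letters TATAAA, on either strand.
Jun: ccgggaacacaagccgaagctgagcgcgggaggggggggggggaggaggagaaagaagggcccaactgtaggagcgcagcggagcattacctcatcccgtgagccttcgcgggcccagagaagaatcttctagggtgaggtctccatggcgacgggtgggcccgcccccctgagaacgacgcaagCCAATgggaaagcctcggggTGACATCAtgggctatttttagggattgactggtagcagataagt
Jund: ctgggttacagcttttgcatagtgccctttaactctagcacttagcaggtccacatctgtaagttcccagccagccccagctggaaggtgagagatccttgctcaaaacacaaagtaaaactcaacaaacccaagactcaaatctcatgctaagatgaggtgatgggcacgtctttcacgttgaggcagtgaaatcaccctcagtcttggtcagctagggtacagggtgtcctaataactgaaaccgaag
Klf6: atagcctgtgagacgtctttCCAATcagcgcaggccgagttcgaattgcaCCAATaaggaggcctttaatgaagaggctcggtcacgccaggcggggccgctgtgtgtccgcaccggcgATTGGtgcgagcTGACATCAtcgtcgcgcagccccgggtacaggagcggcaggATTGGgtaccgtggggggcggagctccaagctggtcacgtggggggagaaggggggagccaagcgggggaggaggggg
Fos: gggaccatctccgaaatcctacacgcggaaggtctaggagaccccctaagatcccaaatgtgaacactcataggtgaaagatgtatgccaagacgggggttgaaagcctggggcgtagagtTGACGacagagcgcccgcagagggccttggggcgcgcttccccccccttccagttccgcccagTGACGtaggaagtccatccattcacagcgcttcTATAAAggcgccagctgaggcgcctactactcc

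The letters TGACATCA stood in Jun, 45 to 38 bases before the start, and in Klf6, 119 to 112 bases before it. These were the only ones among the 8 windows with that motif, which 2.93% of all 32851 promoter windows of that length held on either strand. CCAAT stood in Jun, Junb and Klf6 and in 33.8% of all windows, with 4 matches in Klf6. TGACG stood in 5 of the 8 windows (Atf3, Klf4, Fosb, Junb and Fos) and in 17.8% of all, and Fos held it at both 129 to 125 and 66 to 62 bases before the start. TATAAA was found in Fos and in 12.4% of all windows. The GC box GGGCGG stood in 6 of the 8 windows and 32.7% of all, and the Egr1 site GCGNGGGCG in 2 (Klf4 and Fosb) and 4.70% of all. Neither is capitalised. The 8 windows held 47.6% (Jund) to 74.0% (Klf4) G and C, and all but that of Jund were above the median of all windows (52.4%). The percentages of all windows were not matched for this content, and its part in the motif counts was not tested. The Jund window held none of the motifs searched, so the 3 genes that were higher without overlap did not share one. The full response element TGACGTCA, which contains TGACG, the AP-1 site TGANTCA and the SRF CArG box were in none of the 8 windows and in 1.55%, 6.75% and 1.47% of all windows. The motifs do not overlap in the printed runs. A match describes letters in this window and shows no binding. An absence holds only for these 250 bases, and sites farther from the start, or any in Egr1 and Ier2, were not searched.

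Gene positions given with the values are those of the deposited table, for which the submitters' processing notes name the build mm39, and cannot be set against the GRCm38.p6 promoter positions. Values are normalized counts as deposited, in which 1 estimated read corresponds to 0.826 to 1.35 units depending on the library. The depth before normalization was 18800000 to 29500000 estimated counts per library, lowest in Control replicate 3. Log2 fold changes are KC-Tie2 minus Control on the log2(value + 1) scale, with standard errors, and p-values come from limma with Benjamini-Hochberg adjustment over all genes tested. A gene with an adjusted p under 0.05 is called. Of the 17539 genes tested, 297 were called (1.69%). The receptor gene Tek itself, which endothelium also expresses, had 934, 933 and 976 in the KC-Tie2 libraries and 1073, 1081 and 989 in the Control libraries (limma adjusted p = 0.361). The 6 proximal tubule markers summed to 268572 to 313142 in KC-Tie2 and 318805 to 343093 in Control libraries, and all listed podocyte, thick limb, distal tubule and collecting duct markers were in the table.

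No member was called by limma: 0 of 8, against 1.69% of all tested genes (0.855% higher and 0.838% lower in KC-Tie2). At an unadjusted p under 0.05 there were 4 of 8, against 15.3% of tested genes. Jun, Jund and Klf6 were higher in KC-Tie2 (3 of 8, against 7.57%) and Egr1 was lower (1 of 8, against 7.77%). The same 4 were the members whose genotypes did not overlap, against 20.0% of tested genes. In the authors' deposited table, 3 of the 8 had a step-up FDR under 0.05, against 3.91% of its genes: Jun and Jund higher (2, against 1.83%) and Egr1 lower (1, against 2.08%). The median log2 fold change was 0.17 over the 8 members and 0.00 over all genes tested. Since the members were chosen with results of these data known, these counts are a description.

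**Figure D1:**
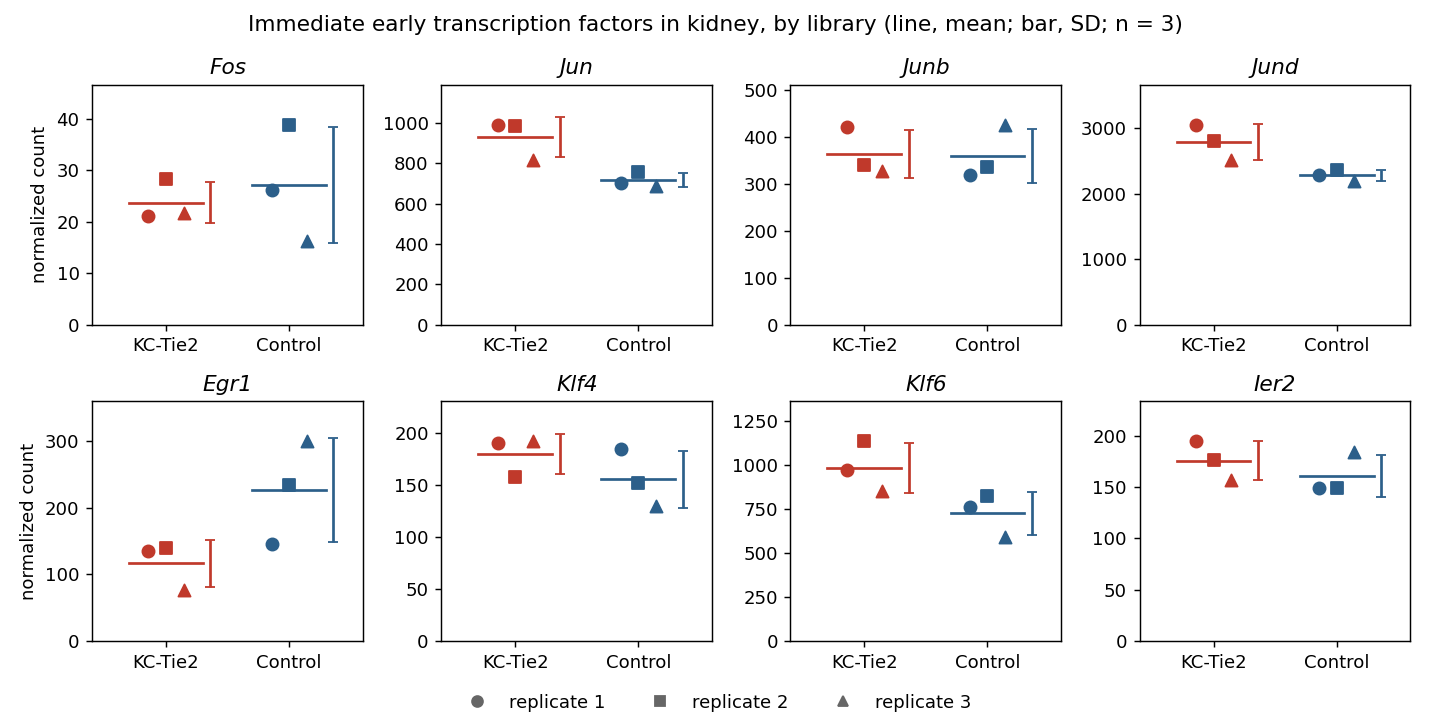
Normalized counts (vertical axis, from 0, one scale per gene) of the 8 factors in the 3 KC-Tie2 and the 3 Control libraries (horizontal axis). Points are libraries, with a shape per replicate number, lines are means and bars are SDs. The KC-Tie2 points lie above the Control points for Jun, Jund and Klf6, below them for Egr1, and among them for the other genes.

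Jun, the AP-1 subunit that gives the Jun family its name (ENSMUSG00000052684, chromosome 4, 94937271 to 94940459, minus strand), had 990.3, 985 and 816 normalized counts in KC-Tie2 replicates 1 to 3 and 703, 755 and 688 in Control replicates 1 to 3. The groups did not overlap, and KC-Tie2 replicate 3 lay nearest to the Control values. The means were 930.4 ± 99.5 in KC-Tie2 and 715 ± 34.8 in Control libraries (SD, n = 3 each). The log2 fold change was 0.37 ± 0.09, or 1.30-fold (95% interval on the log2 scale 0.18 to 0.57, limma adjusted p = 0.0649). The authors' deposited table gives the same gene a ratio of 1.30 and a step-up FDR of 0.0279. Without KC-Tie2 replicate 3 the limma adjusted p was 0.0123, and with library weights it was 0.0284. Over the 15 alternatives it ranged from 0.0123 to 0.274, with the log2 fold change between 0.33 and 0.47.

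Jund, the Jun family member that is expressed steadily in most tissues and induced least by stimuli (ENSMUSG00000071076, chromosome 8, 71151599 to 71153265, plus strand), had 3048, 2800 and 2514 in the KC-Tie2 libraries and 2279, 2367 and 2188 in the Control libraries. Here too every KC-Tie2 value was above every Control value, and replicate 3 was the lowest library of each genotype. The means were 2787 ± 267 and 2278 ± 89.9, and the log2 fold change was 0.29 ± 0.08 (95% interval 0.12 to 0.46, limma adjusted p = 0.1003). The authors' deposited table has a ratio of 1.22 with a step-up FDR of 0.0492. Jund passed the limma threshold without KC-Tie2 replicate 3 (adjusted p = 0.0271), within a range of 0.0271 to 0.324 over its alternatives.

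Junb, which can counter Jun at some target genes, had 421, 339 and 327 in the KC-Tie2 libraries and 318, 335 and 425 in the Control libraries. The groups lay over each other, with 1 high library in each (KC-Tie2 replicate 1 and Control replicate 3). The log2 fold change was 0.01 ± 0.13, with an interval of -0.28 to 0.31 (limma adjusted p = 0.978). Junb (chromosome 8, 85701113 to 85705347, minus strand) overlaps Prdx2 on the opposite strand over 351 bases, and the sources used here do not say whether counting used strand. Prdx2, a peroxiredoxin, had 2673 ± 133 and 2560 ± 98.7 (limma adjusted p = 0.741), so reads of that stretch could be shared with a gene of higher count. The other 7 members overlap no gene of the table.

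Fos, the partner of the Jun proteins (ENSMUSG00000021250, chromosome 12, 85520664 to 85524047, plus strand), was the lowest member. It had 21.1, 28.3 and 21.8 in the KC-Tie2 libraries and 26.3, 38.8 and 16.2 in the Control libraries, which correspond to 19, 34 and 24 estimated counts in KC-Tie2 and 25, 47 and 12 in Control. The highest and the lowest value were both in Control libraries, replicates 2 and 3. The log2 fold change was -0.11 ± 0.37, and its 95% interval, -0.93 to 0.70, spans changes of either direction (limma adjusted p = 0.925). A difference of Fos between the genotypes was not detectable at this depth and spread. The direction turned without Control replicate 2 (0.18).

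Egr1, a zinc finger factor induced by growth factors and by stretch and ischaemia (ENSMUSG00000038418, chromosome 18, 34992876 to 34998037, plus strand), went the other way from Jun. It had 134, 140.04 and 76.2 in the KC-Tie2 libraries and 145, 235 and 299 in the Control libraries. The groups did not overlap, but KC-Tie2 replicate 2 and Control replicate 1 lay within 5 units of each other. The means were 117 ± 35.3 and 226 ± 77.4, a log2 fold change of -0.94 ± 0.33 (95% interval -1.70 to -0.17, limma adjusted p = 0.233). The authors' deposited table gives a ratio of 0.518 and a step-up FDR of 0.0151, the smallest of the 8 members there. Under all 15 limma alternatives the value stayed below 0 (-1.22 to -0.66) and was not called (adjusted p 0.137 to 0.457).

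Klf6, a Krüppel-like zinc finger factor known to be induced in injured tissue (ENSMUSG00000000078, chromosome 13, 5911481 to 5920393, plus strand), had 971, 1134.5 and 852 in the KC-Tie2 libraries and 765, 826 and 590 in the Control libraries. The lowest KC-Tie2 library exceeded the highest Control library by a small margin. The means were 986 ± 142 and 727 ± 122, a log2 fold change of 0.44 ± 0.14 (95% interval 0.12 to 0.77, limma adjusted p = 0.184). In the authors' deposited table the ratio was 1.35 and the step-up FDR 0.0503. Klf4, a related factor expressed in epithelia and endothelium, had 189.9, 158 and 191 in KC-Tie2 and 184, 152 and 130 in Control libraries. These groups overlapped, with a log2 fold change of 0.22 ± 0.16 (95% interval -0.13 to 0.57, limma adjusted p = 0.577). It was 0.10 without Control replicate 3 and 0.35 without Control replicate 1. Ier2, an immediate early nuclear regulator, had 194, 176 and 157 in KC-Tie2 and 149, 149 and 184 in Control libraries, also overlapping (log2 fold change 0.13 ± 0.15, 95% interval -0.19 to 0.45, limma adjusted p = 0.748). For Ier2 it lay between 0.06, without KC-Tie2 replicate 1, and 0.23, without Control replicate 3.

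**Figure D2:**
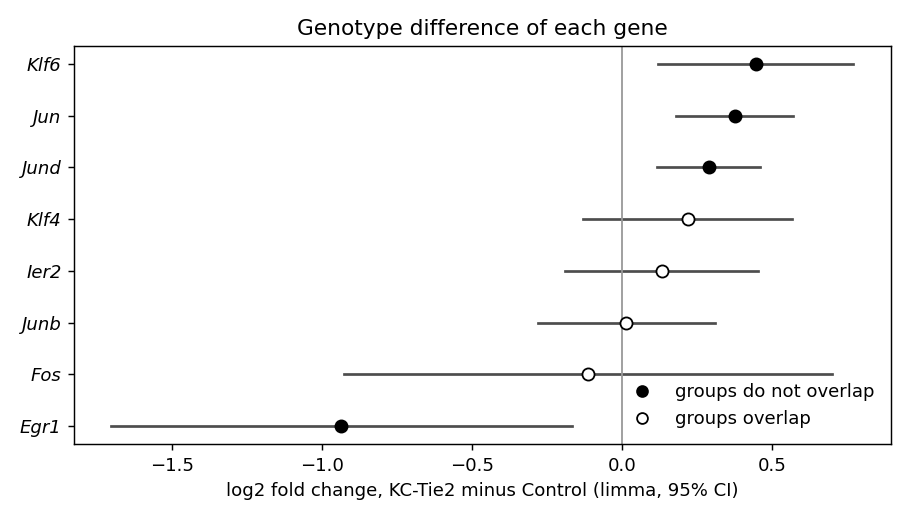
Log2 fold change of each factor, KC-Tie2 minus Control, with its 95% interval from limma (horizontal axis), 1 row per gene. Filled points are genes whose groups do not overlap. The intervals of Klf6, Jun and Jund lie above 0 and that of Egr1 below 0, without adjustment for the number of genes tested; the interval of Fos is the widest of the 8.

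Levels between genes were compared as mean normalized count per kilobase of annotated exon (GENCODE M21, build GRCm38, union of all transcripts). Jund was highest, at 1671 ± 160 per kilobase in KC-Tie2 and 1366 ± 53.9 in Control libraries. Jun followed with 292 ± 31.2 and 224 ± 10.9, then Klf6 with 225 ± 32.3 and 166 ± 27.9, Junb with 157 ± 22.2 and 156 ± 24.9, and Ier2 with 115 ± 12.3 and 106 ± 13.3. Klf4 had 58.9 ± 6.27 and 50.9 ± 8.90, Egr1 26.1 ± 7.88 and 50.4 ± 17.3, and Fos 10.1 ± 1.70 and 11.5 ± 4.81. In this order the only overlaps between neighbouring genes were Jun and Klf6 in KC-Tie2 libraries, and Klf6 and Junb, and Klf4 and Egr1, in Control libraries. Among the 8 members in the table, the steadily expressed Jund had the highest level and Fos the lowest. Fosb and Atf3 have no row and could not be ranked, and a link between level and inducibility was not tested.

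The spread between libraries of 1 genotype differed widely between the members. Within a genotype, the SD of the log2 values was 0.51 for Egr1 and 0.46 for Fos, larger than in 93.6% and 91.5% of all tested genes. For Jund and Jun it was 0.11 and 0.12, larger than in 32.2% and 39.7% of genes, and for the other 4 it was 0.16 to 0.23. Within KC-Tie2 and within Control, the highest library exceeded the lowest 1.84-fold and 2.06-fold for Egr1, and 1.34-fold and 2.39-fold for Fos. For Ier2 both ratios were 1.24-fold. Over all 6 libraries, which takes in the genotype difference, it was 3.92-fold for Egr1, 2.39-fold for Fos and 1.31-fold for Ier2. Fos rests on 12 to 47 estimated counts per library and Egr1 on 84 to 284.

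As a gauge of handling, the libraries were compared over all 8 members. No library was high or low throughout. KC-Tie2 replicate 1 was the highest library at 3 members (Jun, Jund and Ier2) and KC-Tie2 replicates 2 and 3 at 1 each (Klf6 and Klf4), while Control replicate 3 was the highest at 2 (Junb and Egr1) and Control replicate 2 at 1 (Fos). Control replicate 3 was also the lowest library at 5 members (Fos, Jun, Jund, Klf4 and Klf6), and it was the shallowest library; the part of depth in this was not tested. Averaged over the members, the log2 deviation from each gene's mean was 0.12, 0.10 and -0.15 in KC-Tie2 replicates 1 to 3 and -0.09, 0.08 and -0.07 in Control replicates 1 to 3, so the genotypes overlapped on this average. The summed level of the 8 members, to which Jund contributes most, was 5970, 5761 and 4955 in the KC-Tie2 libraries and 4568, 4857 and 4520 in the Control libraries, with no overlap. Fos and Egr1 shared their high values in Control replicate 2 (0.64 and 0.58 above their means on the log2 scale) but were opposite in Control replicate 3 (-0.57 and 0.93).

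**Figure D3:**
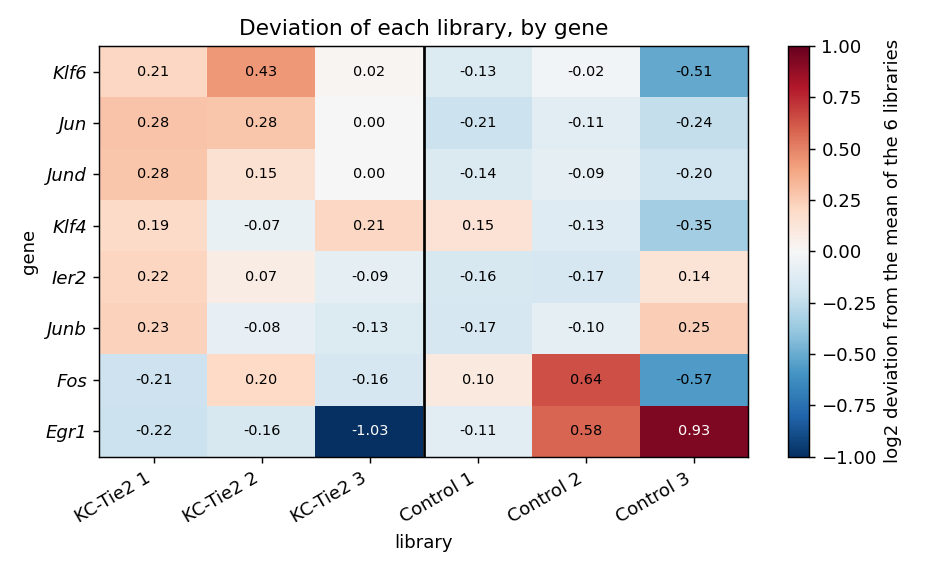
Log2 deviation of each library (columns, KC-Tie2 left of the line, Control right of it) from the gene's mean over the 6 libraries (rows are genes, colour and number give the deviation). Jun and Klf6 are above 0 in all KC-Tie2 libraries and below 0 in all Control libraries, and Egr1 ranges from -1.03 in KC-Tie2 replicate 3 to 0.93 in Control replicate 3.

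By the mean absolute difference in log2 deviation over the 6 libraries, the genes most like Fos among 12100 named protein-coding genes with a mean of at least 50 were Tmem191c (0.12), Abcc3 (0.12), Lsmem2 (0.13), Gsta2 (0.13) and Dapk2 (0.14). All 5 had their highest value in Control replicate 2, and all but Dapk2 their lowest in Control replicate 3, with the genotypes overlapping. These shared features follow from choosing the genes by their likeness to Fos, whose pattern rests on 12 to 47 estimated counts. Tmem191c, for example, had 57.8, 86.5 and 52.6 in KC-Tie2 and 60.9, 88.4 and 42.0 in Control libraries. Among the members, Klf6 was nearest to Fos (0.30) and Egr1 farthest (0.50).

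Of 16 genes that signal to the immediate early promoters, 11 were above 0, against 8823 of all 17539 tested genes. Of the 16, 1 rose and 0 fell, against 0.855% and 0.838% of tested genes. The median log2 fold change was 0.04, against 0.00 over all tested genes. The gene that rose was Mapkapk2, a kinase downstream of p38 that stabilises short-lived transcripts and phosphorylates CREB and serum response factor. It had 3219.8, 3125 and 2945 in the KC-Tie2 libraries and 2352, 2581 and 2207 in the Control libraries, with no overlap (log2 fold change 0.38 ± 0.07, limma adjusted p = 0.0297). It was called in 11 of 15 alternatives and lost its call without KC-Tie2 replicate 1 (0.115), KC-Tie2 replicate 2 (0.1403), Control replicate 1 (0.145) or Control replicate 3 (0.141). Srf itself had 561, 499 and 550 in KC-Tie2 and 423, 499 and 517 in Control libraries (limma adjusted p = 0.475), and Creb1 had 995, 998 and 1095 in KC-Tie2 and 1053, 1038 and 1093 in Control libraries (limma adjusted p = 0.829).

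Of 13 further AP-1 and ATF factors, 11 were tested (the table as analysed here has no row for Fosl1 or Batf) and none was called by limma. At an unadjusted p under 0.05, 1 was higher and 1 lower (7.57% and 7.77% of all tested genes), and the median log2 fold change was 0.06. That median was below 0 without KC-Tie2 replicate 2 (-0.03), Control replicate 1 (-0.01) or Control replicate 3 (-0.03), and over genes with a mean of at least 100 (-0.04). Maff, a small Maf protein that lacks an activation domain, had 61.1, 53.3 and 66.2 in KC-Tie2 and 48.3, 41.3 and 33.8 in Control libraries (limma adjusted p = 0.282). Mafg, its relative, had 2292, 2208 and 2280 in KC-Tie2 and 2599, 2358 and 2787 in Control libraries (limma adjusted p = 0.241). Fosl2, the Fos family member with more steady expression, had 1227, 845 and 905 in KC-Tie2 and 1055, 1074 and 739 in Control libraries, which overlapped (limma adjusted p = 0.934).

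Of 31 other immediate early genes, 27 were tested (all but Egr2, Egr3, Nr4a2 and Nr4a3). Of the 27, 20 were above 0, against 8823 of all 17539 tested genes. Called genes were 3 that rose and 0 that fell, against 0.855% and 0.838% of tested genes. The median log2 fold change was 0.18. Ppp1r15a, which guides a phosphatase to the translation factor eIF2 under stress, had 425, 458 and 406 in KC-Tie2 and 308, 289.9 and 299 in Control libraries, well apart (log2 fold change 0.52 ± 0.10, limma adjusted p = 0.0228). Socs3, the feedback inhibitor of interleukin-6 type cytokines, had 123, 133 and 75.3 in KC-Tie2 and 41.0, 58.6 and 46.0 in Control libraries (log2 fold change 1.15 ± 0.25, limma adjusted p = 0.0435). Nfkbiz, an NF-kB cofactor, had 509.6, 589 and 348 in KC-Tie2 and 241, 278 and 212 in Control libraries (log2 fold change 0.96 ± 0.19, limma adjusted p = 0.0471). Socs3 and Nfkbiz respond to cytokines as well as to acute stimuli. All 3 genes lost their call without KC-Tie2 replicate 1, KC-Tie2 replicate 2, Control replicate 1 or Control replicate 3. Their adjusted p then lay between 0.0872 and 0.135 for Ppp1r15a, 0.152 and 0.221 for Socs3, and 0.116 and 0.195 for Nfkbiz. Socs3 also missed the threshold without robust variance estimation (0.0616). Nr4a1, a nuclear receptor induced along with Fos and Egr1, had 87.7, 73.4 and 54.4 in KC-Tie2 and 85.1, 129.7 and 52.8 in Control libraries, overlapping and highest in Control replicate 2, as Fos was (limma adjusted p = 0.789). Klf10, a factor induced by transforming growth factor beta, had 407, 282 and 206 in KC-Tie2 and 667, 401 and 602 in Control libraries, overlapping slightly (log2 fold change -0.92, limma adjusted p = 0.257). Nr4a1, Klf10, Srf, Creb1 and Fosl2 were named after their values were seen.

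Of 19 feedback inhibitors, phosphatases and Sprouty proteins that shut off MAP kinases and proteins that bind Egr factors or destroy short-lived transcripts, 18 were tested and none was called by limma. At an unadjusted p under 0.05, 1 was higher and 4 were lower (7.57% and 7.77% of all tested genes), and the median log2 fold change was -0.08. Nab2, a corepressor of Egr1 that Egr1 itself induces, had 357, 310 and 288 in KC-Tie2 and 469, 356 and 420 in Control libraries, with KC-Tie2 replicate 1 just above Control replicate 2 (log2 fold change -0.38 ± 0.12, limma adjusted p = 0.165). Spry4, a Sprouty inhibitor of receptor signalling, had 304, 273 and 281 in KC-Tie2 and 335, 334 and 402 in Control libraries, without overlap (limma adjusted p = 0.197).

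Heat shock genes, which respond to temperature and to protein damage, served as a further gauge of stress. Of 12 tested none was called by limma, and the median log2 fold change was -0.17. At an unadjusted p under 0.05, 0 were higher and 5 lower, against 7.57% and 7.77% of all tested genes. Their summed level was 44167, 42452 and 52672 in the KC-Tie2 libraries and 56076, 55419 and 53095 in the Control libraries. Every KC-Tie2 sum was below every Control sum, but Hspa8 alone held the largest part of each sum. The separation therefore need not hold for the other genes of the list. Of the 12 genes, 2 were lower without overlap and 0 higher, against 20.0% of tested genes without overlap in either direction. Hspa8, a constitutive chaperone, had 21956, 23177 and 26369 in KC-Tie2 and 28467, 28460 and 28703 in Control libraries (limma adjusted p = 0.1495), and the mitochondrial chaperonin Hspd1 had 5287, 5634 and 7106 in KC-Tie2 and 8263, 7067 and 8170 in Control libraries (limma adjusted p = 0.119). Without KC-Tie2 replicate 3, 2 of these named genes were called, Hspd1 (0.0113) and Hspa8 (0.0433). The inducible genes Hspa1a and Hspa1b, named after their values were seen, overlapped between the genotypes, with log2 fold changes of 0.33 and 0.41 (limma adjusted p = 0.681 and 0.790).

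**Figure D4:**
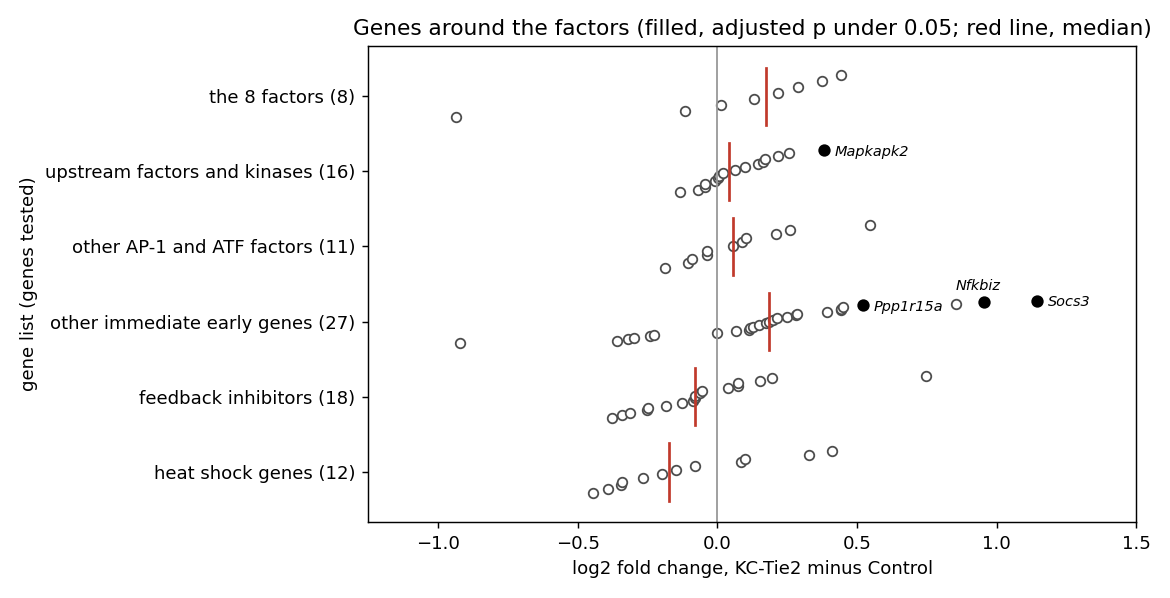
Log2 fold change, KC-Tie2 minus Control (horizontal axis), of each tested gene in the 8 factors and in 5 surrounding gene lists (rows, with the number tested). Filled points are genes with a limma adjusted p under 0.05 and red lines are list medians. Among these lists 4 genes passed, all higher in KC-Tie2: Mapkapk2, Ppp1r15a, Nfkbiz and Socs3.

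Other transcripts moved with the genotype beside Jun, Jund, Klf6 and Egr1, and their part in these differences was not tested. In RNA from whole tissue, fewer cells of a type and less RNA per cell cannot be told apart. Over all 17539 tested genes, 8823 were above 0 and 1.69% were called. An unadjusted p under 0.05 was found for 15.3% (7.57% higher and 7.77% lower). The 7 tubular injury markers of the table (of 8 listed) summed to 60438, 82332 and 37025 in KC-Tie2 and 13632, 14779 and 10708 in Control libraries, most of it Spp1 (osteopontin), which is also made by healthy distal tubules, and none of the 7 was called by limma (3 at an unadjusted p under 0.05). The 5 collecting duct markers summed to 10444 to 13806 in KC-Tie2 and 6935 to 9455 in Control libraries, all 5 above 0 and none called by limma (4 at an unadjusted p under 0.05). Aqp2 held the largest part of each of these sums, with 5917 to 8464 in KC-Tie2 and 2660 to 4888 in Control libraries. All 8 macrophage markers were above 0 and 3 rose (C1qa, C1qb and C1qc), with sums of 2586 to 3117 in KC-Tie2 and 1918 to 2478 in Control libraries. Csf1r held the largest part of each of these sums, with 1275 to 1457 in KC-Tie2 and 1074 to 1561 in Control libraries. It overlapped between the genotypes (log2 fold change 0.06, limma adjusted p = 0.884). Of 8 neutrophil markers 3 were in the table and all 3 rose. Their sums were 58.1 to 145 in KC-Tie2 and 8.40 to 17.3 in Control libraries, with S100a8 listed at 0 in Control replicates 1 and 3. No gene of the table had a maximum under 24.8. The highest Control values were 12.4 for Csf3r, 4.13 for S100a9 and 0.826 for S100a8. These 3 were therefore in the table only through their KC-Tie2 values, so their presence already required higher values there. KC-Tie2 replicate 3 had the lowest sum of its genotype in these 4 lists, and it was also the lowest library of its genotype for Jun, Jund, Klf6 and Egr1. Its value was the nearest to the Control values for Jun, Jund and Klf6 but the farthest from them for Egr1. The 5 thick limb and distal tubule markers summed to 136288 to 170906 in KC-Tie2 and 129083 to 131648 in Control libraries. Of these, 4 were above 0 and 1 below. Only Calb1, a calcium-binding protein of the distal tubule, rose (limma adjusted p = 0.0106). Umod (log2 fold change 0.17, limma adjusted p = 0.468) and Slc12a3 (-0.04, limma adjusted p = 0.885) overlapped between the genotypes. Of 8 B and plasma cell markers 4 were in the table and 3 fell (the immunoglobulin genes Jchain, Igkc and Igha). The sums were 221 to 242 in KC-Tie2 and 375 to 664 in Control libraries. Cd79b, also in the table, was above 0 and overlapped between the genotypes (log2 fold change 0.60, limma adjusted p = 0.766). The proximal tubule sums given above were also lower in every KC-Tie2 library, with none of the 6 markers called by limma (1 higher and 2 lower at an unadjusted p under 0.05). Aqp2, Csf1r, C1qa, C1qb, C1qc, Csf3r, S100a9, Calb1, Umod, Slc12a3, Jchain, Igkc, Igha and Cd79b were named after their values were seen.

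Sums of erythroid and fat markers overlapped between the genotypes. The 5 erythroid markers, a trace of blood left in the tissue, gave sums of 5079, 973 and 4011 in KC-Tie2 and 1911, 2203 and 1474 in Control libraries. The 4 fat markers of the table (of 5 listed) summed to 2360, 487 and 506 in KC-Tie2 and 3049, 617 and 468 in Control libraries, highest in replicate 1 of each genotype. KC-Tie2 replicate 1, with the highest erythroid sum and the highest fat sum of its genotype, was the highest of all libraries for Jun, Jund and Ier2, and the part of such transcripts in the members' values was not tested. Of 6 adrenal cortex markers only Star was in the table (129 to 163 over all libraries), and none of 6 skeletal muscle markers was.

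**Figure D5:**
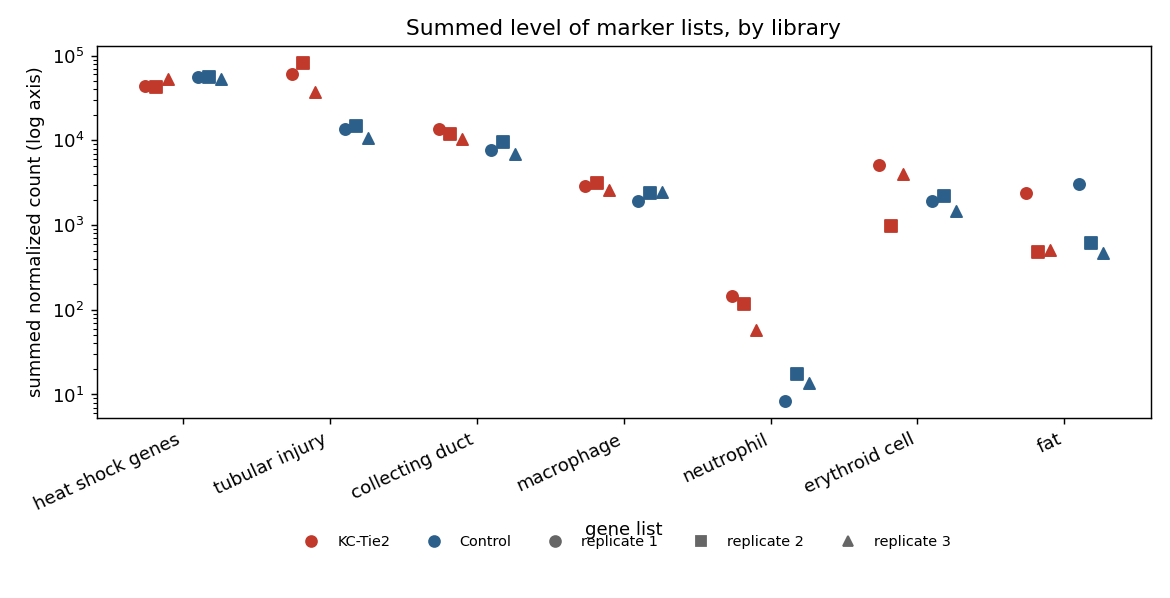
Summed normalized count (vertical log axis) of 7 marker lists in each library, KC-Tie2 left and Control right within each list, with a shape per replicate number. Tubular injury, collecting duct, macrophage and neutrophil sums are higher and heat shock sums lower in every KC-Tie2 library than in every Control library, while erythroid and fat sums overlap. The neutrophil markers are in the table only through their KC-Tie2 values. The largest part is Spp1 in the tubular injury sums, Aqp2 in the collecting duct sums, Csf1r in the macrophage sums and Hspa8 in the heat shock sums.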

How the data were processed

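Poly(A)-selected RNA-seq of 6 mouse kidney samples was analysed from the deposited tables, grouped by the genotype in the labels. The submitters' processing notes name Partek 12.5.0, STAR, DESeq2 and mm39, without the role of each; the annotation release and the use of strand are not stated there. The deposited expression values are a normalized signal: among values under 60, 68.4% to 70.8% per library came within 0.01 of whole multiples of that library's step, so whole reads were not recovered. No gene had a maximum under 24.8. The p-value, step-up FDR, ratio and signed fold-change score of KC-Tie2 over the group headed WT, per the file headers of the authors' comparison table, were quoted and not retested.

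Values were taken as log2(value + 1), genes with a mean of at least 10 were kept, and limma 3.58.1 (R 4.3.3; robust eBayes with a mean trend) tested the genotypes (two-sided; p-values of all 17539 genes were adjusted by Benjamini-Hochberg). The fit was tested on simulated data. The members, the lists and the test were chosen with earlier results of these data known. Beside the members, the text names, for each of 5 lists, up to 4 called genes with the largest absolute log2 fold changes or, with none called, the 2 with the smallest p, and the 5 genes most like Fos. Cell type markers were summed per library. Promoters came from RefSeq and were searched on both strands. Tables and figures used Python 3.11.15, pandas 2.3.3, numpy 2.4.6 and matplotlib 3.10.9. Alternatives were other pseudocounts, filters, scalings, variance models and weights, a replicate block, and each library left out in turn.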

Additional observations from a re-analysis of the deposited data

How the results depend on the processing

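The count of called genes (297) and of called members (0) changed by over 1.5 times with library weights (549 genes, 1 member, Jun), with the replicate number as a block (581 genes, 2 members, Jun and Klf6) and when libraries were left out in turn (48 to 682 genes, 0 to 2 members). It was lowest without KC-Tie2 replicate 2 and highest without KC-Tie2 replicate 3, where Jun and Jund were called; the counts were 70 without KC-Tie2 replicate 1, and 51, 525 and 54 without Control replicates 1, 2 and 3. The cause was not tested. Of the 119 recomputed fold changes of the 8 members, 110 kept their direction and their side of the threshold and 5 passed it. The 4 that turned were Junb without KC-Tie2 replicate 1 (-0.10), Control replicate 1 (-0.07) or Control replicate 2 (-0.03), and Fos without Control replicate 2 (0.18); over the libraries left out, Junb ranged from -0.10 to 0.14 and Fos from -0.43 to 0.18. Fos has no value at a mean of at least 100. Same-numbered libraries did not deviate together (correlations across genes of 0.18, -0.10 and 0.02 for numbers 1 to 3, and 3 of 6 libraries closest to their own number), so the numbers are not taken as pairs; under the block, adjusted p was 0.0332 for Jun and 0.0112 for Klf6. Alternatives for genes of the lists were added after seeing the data: called genes numbered 0 to 4 among the other immediate early genes and 0 to 1 among the signalling genes, fallen heat shock genes 0 to 4, and feedback inhibitors 0 to 1 in each direction. List medians ranged from 0.05 to 0.32 for the other immediate early genes, -0.04 to 0.09 for the AP-1 and ATF factors, 0.04 to 0.08 for the signalling genes, -0.13 to -0.04 for the feedback inhibitors and -0.32 to -0.03 for the heat shock genes. Leaving out libraries moved Klf4 between 0.10 and 0.35 and Ier2 between 0.06 and 0.23. Depth limits Fos most, at 12 to 47 estimated counts.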
